A study of Homo sapiens with 12 samples.

Results

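The inducible cytosolic heat shock proteins described here were 10 genes: HSPA6, HSPA1A, HSPA1B, HSPA8, DNAJB1, HSPH1, BAG3, HSPB1, HSPB8 and CRYAB. They were selected by gene name, and the choice was made with their squamocin values known, so those values are given as a description with their errors and without a test. All 10 were listed among the 29657 genes of the SCC15 table and the 31055 genes of the SCC25 table. All 10 also reached the mean of 10 normalized counts that was required for a fit, although HSPB8 in SCC25 cells did so only through the squamocin libraries.

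SCC15 and SCC25 are established HNSCC (head and neck squamous cell carcinoma) cell lines. Each line was treated for 24 h with squamocin at 10 µg/mL, which the sample labels call ACGs (annonaceous acetogenins), or with the vehicle DMSO, and RNA was sequenced from 3 libraries per group, 12 in all. The study asked how squamocin, which it described as a Complex I inhibitor and HSP90α ligand, acts on HNSCC cells. Each group is 1 cell line at 1 dose and 1 time, and since nothing states that libraries came from separate cultures, the errors measure only the spread between these libraries. Values are normalized counts, meaning reads per gene divided by 1 size factor per library that the authors set within each line, so levels are compared within a line only.

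When unfolded protein builds up, the transcription factor HSF1 is released from chaperones, forms trimers and binds heat shock elements, which are inverted repeats of the bases GAA in the promoters of chaperone genes. HSP70 proteins bind exposed hydrophobic stretches and release them through an ATP cycle. J proteins such as DNAJB1 start that cycle, exchange factors such as HSPH1 and BAG3 complete it, and small heat shock proteins hold unfolding clients without ATP. HSP90 keeps HSF1 in check, and its inhibitors are known to induce this set of genes.

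The libraries held between 16665563 and 22748845 reads on genes. After the authors' scaling, the library totals were higher with squamocin than with DMSO (SCC15, 20467856 to 24626253 against 15466464 to 15535484; SCC25, 20917114 to 21265099 against 18245022 to 18333723). Setting all totals equal instead moved the median log2 fold change of all genes by -0.49 in SCC15 and by -0.21 in SCC25, and named genes whose direction turns with it are marked where they occur. The third squamocin library of SCC15 stood apart, with a chi-square per degree of freedom of 64.1 and 56.8 against the other two of its group, while every other pair within a group lay between 1.67 and 9.95. SCC25 cells had all 7 squamous epithelial markers examined above 10 normalized counts and SCC15 cells had 6 of 7, with KRT5 at 2.49 to 13.1 and TP63 at 6.22 to 22.7 over the 6 libraries. Summed, these markers ranged from 115621 to 121729 normalized counts with DMSO and from 210958 to 364172 with squamocin in SCC15, and from 32221 to 32484 and from 52679 to 55411 in SCC25. The SCC15 sum is mostly KRT17, at means of 112298 with DMSO and 260258 with squamocin. The log2 fold changes of CDH1 and DSP were below 0, at -0.10 and -0.45 in SCC15, where neither passed, and at -0.46 and -0.38 in SCC25. KRT14 rose in both lines (0.89 in SCC15 and 1.06 in SCC25), as did SFN (0.82 and 1.55) and KRT17 (1.17 and 1.60). TP63 was at -0.72 in SCC15, where it did not pass, and at 0.59 in SCC25. KRT5 was not fitted in SCC15 and fell in SCC25 (-0.25). The summed markers of other cell types ranged from 318 to 336 with DMSO and from 154 to 190.4 with squamocin in SCC15, and from 126 to 173 and from 41.9 to 52.2 in SCC25. The part of these shifts in the results below was not tested.

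Heat shock elements were searched for in the RefSeq promoter windows (GRCh38.p14, 250 bases before to 50 bases after a transcription start), of which 9 of the 10 genes had an entry and DNAJB1 had 3. A pair of units was searched as GAANNTTC or TTCNNGAA, and 3 units as GAANNTTCNNGAA or TTCNNGAANNTTC, where N is any base. Each form reads the same on both strands or is the other form's complement, so both strands were covered, and a match of 3 units holds 2 overlapping pairs. Of 35116 promoter windows, 13.5% held a pair and 0.49% held 3 units. Among the 9 genes, 7 held a pair and 2, HSPA6 and HSPA8, held 3 units. The HSPA6 flank (chr1:161524290-161524539, + strand) is shown whole because the HSPA6 fold change was the largest of the 10 genes in SCC15 cells. Its capitals mark a pair at bases -180 to -173 and 3 units at bases -74 to -62 from the start:
HSPA6: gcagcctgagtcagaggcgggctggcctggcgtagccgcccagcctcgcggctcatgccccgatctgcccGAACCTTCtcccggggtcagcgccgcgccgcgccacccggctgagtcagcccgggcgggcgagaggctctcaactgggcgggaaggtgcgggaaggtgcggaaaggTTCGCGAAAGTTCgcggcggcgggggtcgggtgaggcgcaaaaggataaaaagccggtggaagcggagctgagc

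The other matches before a start are shown as 30 bases around each, with the match in capitals, so that the near-identical HSPA1A and HSPA1B elements and the 3-unit elements of HSPA8 can be compared. In order, they lie at chr6:31815426-31815455 (+), chr6:31827622-31827651 (+), chr11:123062346-123062375 (-), chr11:123062171-123062200 (-), chr19:14518456-14518485 (-), chr19:14518426-14518455 (-), chr7:76302480-76302509 (+) and chr12:119178832-119178861 (+).
HSPA1A: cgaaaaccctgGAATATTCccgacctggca
HSPA1B: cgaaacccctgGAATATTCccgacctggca
HSPA8 distal: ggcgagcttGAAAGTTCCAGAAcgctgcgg
HSPA8 proximal: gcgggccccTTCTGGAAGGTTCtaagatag
DNAJB1 distal: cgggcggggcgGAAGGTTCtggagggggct
DNAJB1 proximal: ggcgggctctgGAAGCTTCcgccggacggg
HSPB1: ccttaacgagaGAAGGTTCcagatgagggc
HSPB8: tcatcacctccGAATATTCctgtgacagga
Aligned with an offset of 1 base, the HSPA1A and HSPA1B windows were identical at 277 of 299 bases (92.6%). Both HSPA8 elements lie in sequence that GENCODE v44 annotates as exon, counted over all genes and both strands. No match stood in the windows of HSPH1 and BAG3, which says only that these letters are not within them.

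**Figure D1:**
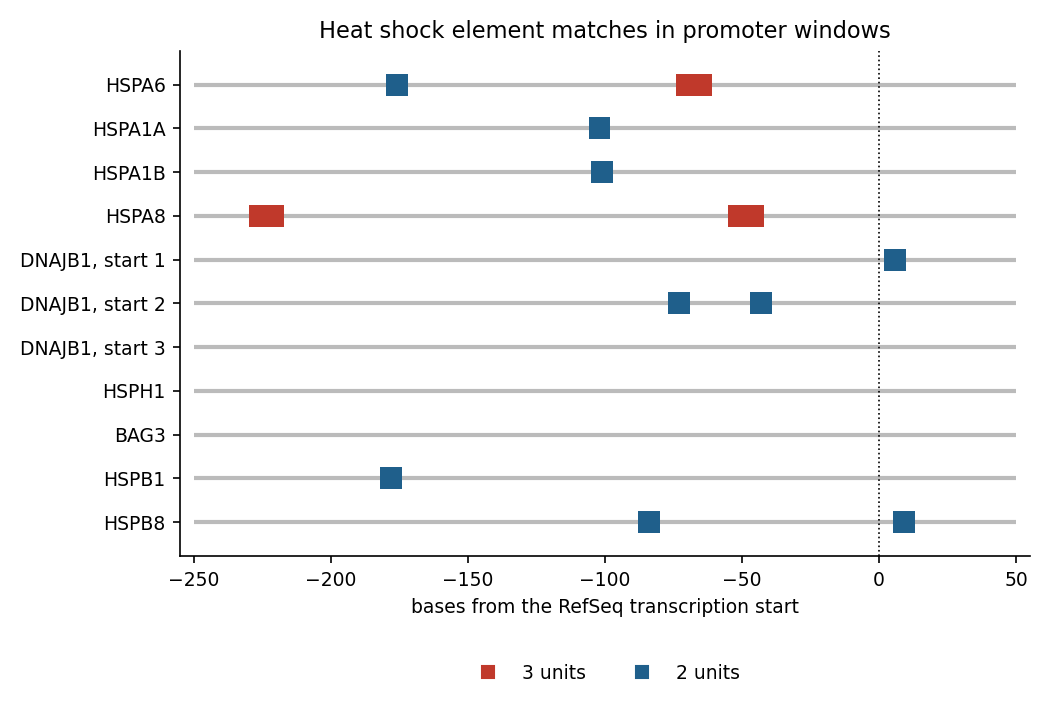
Positions of heat shock element matches in the 11 RefSeq promoter windows of 9 genes, with the distance in bases from the transcription start on the x axis, 3-unit matches in red and 2-unit matches in blue. HSPA6 and HSPA8 hold the 3-unit matches, and the windows of HSPH1, BAG3 and 1 of the 3 DNAJB1 starts hold none.

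In SCC15 cells, 9 of the 10 genes were higher in every squamocin library than in every DMSO library, and 1, HSPB8, was lower in every one. In SCC25 cells the count was again 9 higher and 1 lower, and here the lower gene was BAG3. The 9 include HSPB8, which was fitted in SCC25 only through its squamocin libraries. Such separation was common: of all genes fitted, 35.7% lay entirely higher and 34.9% entirely lower with squamocin in the SCC15 fit, while the SCC25 fit gave 39.4% and 39.6%. The median log2 fold change of the 10 genes was 1.04 in SCC15 (SD 0.24 over the 3 squamocin libraries) and 2.04 in SCC25 (SD 0.13), beside medians of 0.01 and -0.01 over all genes. With equal library totals the medians were 0.54 and 1.83, beside -0.48 and -0.22 over all genes, and the SCC15 count became 6 higher, 2 lower and 2 overlapping. The shares of all genes that lay higher or lower under equal totals are not given here, so that count has no background beside it. Without the third squamocin library, SCC15 still had 9 higher and 1 lower, with a median of 0.90. In both lines, 8 genes were higher without overlap, while BAG3 and HSPB8 went opposite ways. The shares of all genes that did either were not computed.

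**Figure D2:**
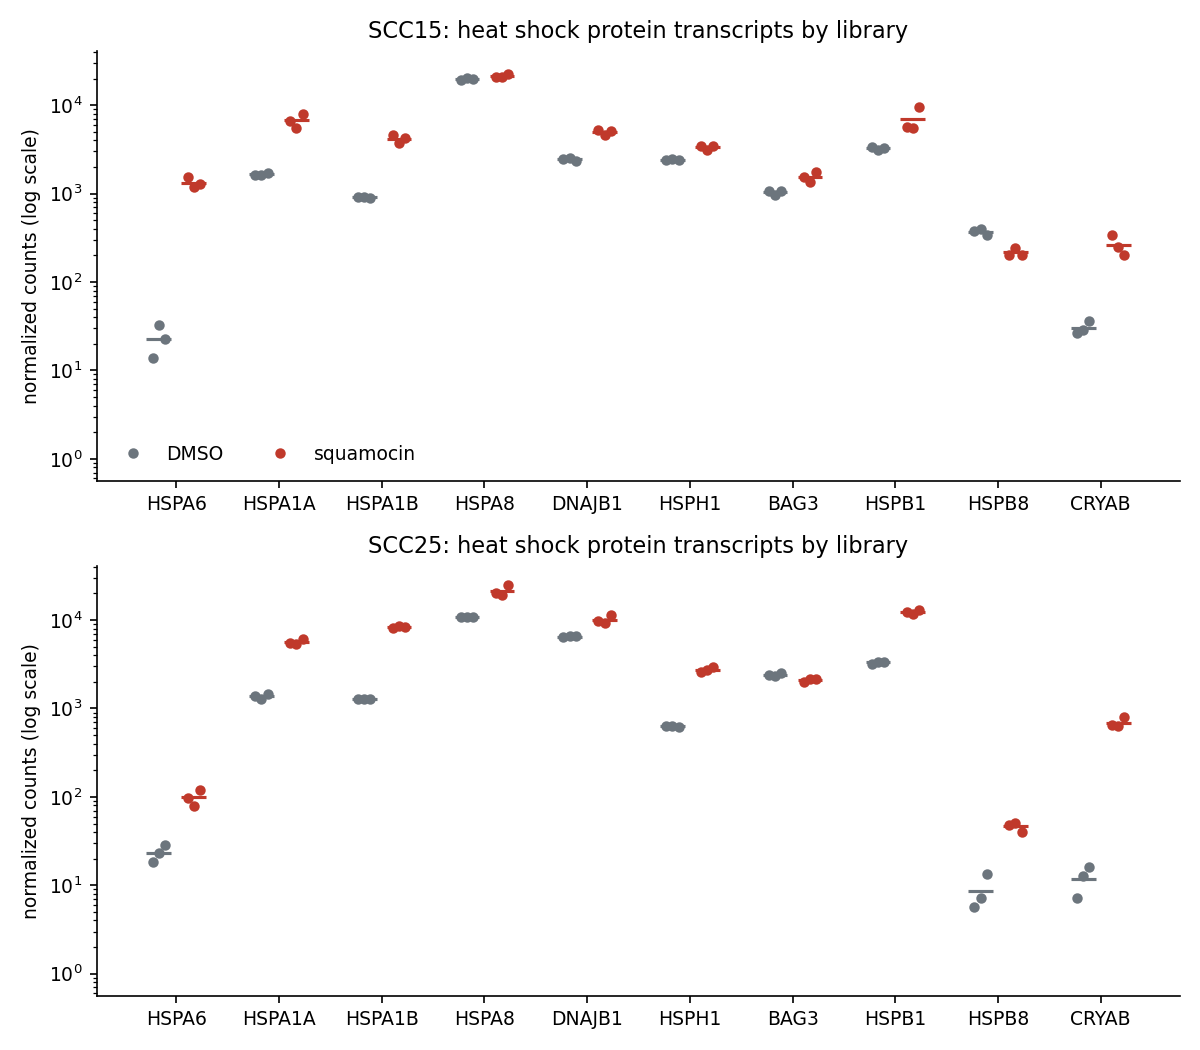
Normalized counts (log axis) of the 10 genes in each of the 12 libraries, with DMSO in grey, squamocin in red and a bar at each group's mean (n = 3). The squamocin points stand furthest above the DMSO points for HSPA6 in SCC15 (58.1-fold between means) and for CRYAB in SCC25 (58.2-fold), whereas those of HSPA8 in SCC15 lie next to each other.

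HSPA6 (chromosome 1, 161524540 to 161526910, + strand in the deposited GRCh38 annotation) encodes a strictly inducible HSP70 that is hardly expressed in unstressed cells. In SCC15 cells its normalized counts were 13.6, 32.4 and 22.7 with DMSO and 1529, 1191 and 1278 with squamocin. All squamocin libraries lay far above all DMSO libraries, and the means of 22.9 ± 9.39 and 1333 ± 175 (SD, n = 3 each) differed 58.1-fold, a log2 fold change of 5.87 ± 0.28 (SE). In SCC25 cells the counts were 18.5, 23.4 and 28.3 with DMSO and 97.9, 79.0 and 121 with squamocin. The SCC25 groups also did not overlap, but the ratio of the means was 4.24 and the log2 fold change 2.04 ± 0.23. The response of HSPA6 was larger in SCC15 by 3.84 ± 0.38 (SE) on the log2 scale. Some of its sequence is not unique, since 27.8% of its 100-base windows occur in HSPA7, a pseudogene on the same chromosome, and reads of these cannot be assigned with certainty.

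HSPA1A and HSPA1B, neighbours on chromosome 6 (31815464 to 31817946 and 31827735 to 31830255, + strand), encode the major inducible HSP70 proteins, which are nearly the same. HSPA1A counts in SCC15 cells were 1644, 1608 and 1688 with DMSO and 6625, 5526 and 7992 with squamocin. Every squamocin library exceeded every DMSO library, with a log2 fold change of 2.01 ± 0.14. In SCC25 cells the HSPA1A counts were 1381, 1279 and 1455 with DMSO and 5453, 5386 and 6087 with squamocin, again without overlap, and the log2 fold change was 2.04 ± 0.06. The responses of HSPA1A in the lines differed by -0.03 ± 0.16, less than the error, under the authors' scaling, by -0.16 without the third squamocin library of SCC15 and by -0.32 with equal totals.

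HSPA1B counts in SCC15 were 909, 917 and 886 with DMSO and 4569.6, 3703 and 4284 with squamocin, a log2 fold change of 2.20 ± 0.10. Those in SCC25 were 1289, 1270.1 and 1292 with DMSO and 8219.6, 8502 and 8282 with squamocin, a log2 fold change of 2.70 ± 0.04. Neither line showed overlap, and the SCC15 response was smaller by a log2 difference of -0.49 ± 0.11. The split between the paired genes is uncertain, because 72.4% of the 100-base windows of HSPA1A also occur in HSPA1B and 36.6% of the exonic bases of HSPA1B are shared with another annotated gene. Per kb of exon, the ratio of HSPA1A to HSPA1B was 1.84 to 2.00 with DMSO and 1.52 to 1.95 with squamocin in SCC15, and 1.05 to 1.18 and 0.663 to 0.769 in SCC25.

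HSPA8 (chromosome 11, 123057489 to 123063230, - strand) encodes HSC70, the constitutive HSP70 of the cytosol. In SCC15 cells its counts were 19330.4, 20157 and 19882 with DMSO and 20773, 20639.8 and 22642 with squamocin. The groups were next to each other without overlap, and the log2 fold change of 0.11 ± 0.10 was about its own error. With equal library totals the direction turned, to -0.39, while relative to the median of all genes it stayed at 0.10 and 0.09. In SCC25 cells HSPA8 counts were 10774, 10824 and 10876 with DMSO and 20469.5, 19341 and 24796 with squamocin, a log2 fold change of 0.98 ± 0.07. All SCC25 squamocin libraries lay well above all DMSO libraries. The response was smaller in SCC15 by a log2 difference of -0.88 ± 0.13.

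Measured per kb of exon, the inducible HSPA6, HSPA1A and HSPA1B together made up 20.1% to 20.9% of the summed level of these 4 HSP70 transcripts with DMSO in SCC15 and 50.1% to 54.9% with squamocin. In SCC25 the same share was 31.9% to 33.5% with DMSO and 53.5% to 58.6% with squamocin. Within that share, HSPA6 took 5.30% to 6.83% of the 4-gene sum in squamocin-treated SCC15 cells and 0.348% to 0.468% in squamocin-treated SCC25 cells. The inducible share adds HSPA1A and HSPA1B, whose exonic lengths of 2.40 and 2.52 kb are close. It so depends little on how counted reads were split between them. Whether reads that fit both genes were counted at all is not given in the sources used here. HSPA8 was divided by 4.85 kb of exon joined over its transcripts, longer than its longest transcript (2207 windows of 100 bases). This understates HSPA8 and overstates the inducible share, with DMSO and with squamocin.

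**Figure D3:**
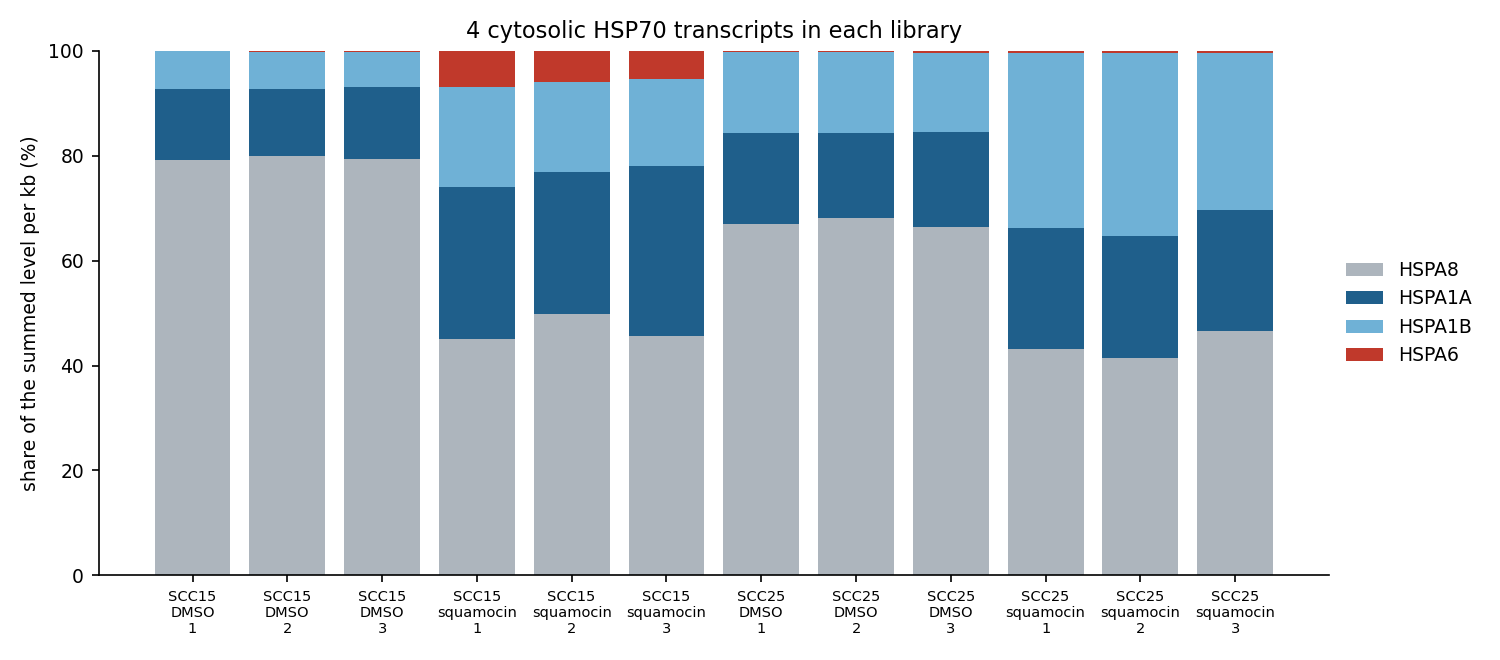
Share in percent of the summed level per kb of exon that HSPA8, HSPA1A, HSPA1B and HSPA6 held in each of the 12 libraries (x axis: cell line, treatment and replicate). HSPA8 holds 79.1% to 79.9% with DMSO and 45.1% to 49.9% with squamocin in the SCC15 libraries, and 66.5% to 68.1% and 41.4% to 46.5% in the SCC25 libraries. HSPA8 is divided by 4.85 kb of joined exon, longer than its longest transcript, which understates its share.

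DNAJB1 (chromosome 19, 14514770 to 14529770, - strand) encodes HSP40, the J protein that delivers clients to inducible HSP70. Its counts in SCC15 were 2459, 2495 and 2359 with DMSO and 5244, 4571 and 5079 with squamocin, a log2 fold change of 1.02 ± 0.09. Its counts in SCC25 were 6413, 6582 and 6548 with DMSO and 9707, 9257 and 11387 with squamocin, a log2 fold change of 0.63 ± 0.06. Both lines had all squamocin libraries above all DMSO libraries, and the response was larger in SCC15 by 0.39 ± 0.12 on the log2 scale, or by 0.10 with equal library totals. Of its exonic bases, 6.41% lie opposite TECR, and the strand setting of the counting is not given in the sources used here.

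HSPH1 (chromosome 13, 31134974 to 31162388, - strand) encodes HSP105, an HSP110-type exchange factor of HSP70. SCC15 libraries had 2371, 2491 and 2422 counts with DMSO and 3419.6, 3127 and 3494 with squamocin, a log2 fold change of 0.46 ± 0.08. With equal totals these groups overlapped and the log2 fold change was -0.04, although relative to the median of all genes it was 0.45 under both scalings. SCC25 libraries had 631, 629 and 623 counts with DMSO and 2613, 2699 and 2951 with squamocin, a log2 fold change of 2.13 ± 0.05. The SCC25 groups lay far apart, and the response was smaller in SCC15 by a log2 difference of -1.67 ± 0.10.

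BAG3 (chromosome 10, 119651370 to 119677819, + strand) encodes an exchange factor that couples HSP70 to small heat shock proteins and to selective autophagy. With DMSO the SCC15 counts were 1079, 957 and 1077, and with squamocin they were 1548, 1342 and 1734, a log2 fold change of 0.56 ± 0.11. With equal totals the SCC15 groups overlapped, at a log2 fold change of 0.07. The SCC25 counts were 2379.9, 2355 and 2521 with DMSO and 1994, 2145 and 2163 with squamocin, so here every squamocin library lay below every DMSO library, with a log2 fold change of -0.20 ± 0.05. The response was 0.77 ± 0.13 larger in SCC15 on the log2 scale and went the opposite way from that in SCC25.

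Among the small heat shock proteins, HSPB1 (chromosome 7, 76302544 to 76304295, + strand) encodes HSP27. SCC15 cells had 3345, 3105 and 3262 counts with DMSO and 5729.9, 5554 and 9572 with squamocin. The third squamocin library was the highest by far, and the log2 fold change was 1.06 ± 0.20 with it and 0.80 without it. SCC25 cells had 3212, 3397 and 3372 counts with DMSO and 12317, 11639.5 and 13022 with squamocin, a log2 fold change of 1.89 ± 0.05. The groups did not overlap in either line, and the response was smaller in SCC15 by a log2 difference of -0.83 ± 0.22, or -1.09 without the third squamocin library of SCC15.

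HSPB8 (chromosome 12, 119178642 to 119221131, + strand) encodes HSP22, the small heat shock protein that works with BAG3. Its SCC15 counts were 378, 401 and 339 with DMSO and 203, 243 and 202 with squamocin, so all squamocin libraries were lower, with a log2 fold change of -0.79 ± 0.12. Its SCC25 counts were 5.64, 7.20 and 13.3 with DMSO and 48.3, 51.0 and 40.0 with squamocin, so all squamocin libraries were higher, with a log2 fold change of 2.36 ± 0.33. The SCC25 value rests on 30 reads over the DMSO libraries and 123 over the squamocin libraries, a 5.39-fold ratio with an exact 95% interval of 3.59 to 8.32 for counting error only. The responses differed by -3.15 ± 0.34 on the log2 scale (SCC15 minus SCC25), with opposite signs. Because HSPB8 reached the required mean in SCC25 only through its squamocin libraries, its rise there gives no independent evidence of a change.

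CRYAB (chromosome 11, 111908565 to 111923722, - strand) encodes αB-crystallin. SCC15 cells had 26.4, 28.5 and 35.8 counts with DMSO and 342, 246 and 200.3 with squamocin, a log2 fold change of 3.05 ± 0.23. SCC25 cells had 7.25, 12.6 and 15.9 counts with DMSO and 648, 637 and 796 with squamocin. The SCC25 means of 11.9 ± 4.38 and 694 ± 88.6 (SD, n = 3 each) differed 58.2-fold, a log2 fold change of 5.80 ± 0.23, and no libraries overlapped in either line. CRYAB was the gene of the 10 with the largest fold change in SCC25, as HSPA6 was in SCC15, and its response was smaller in SCC15 by a log2 difference of -2.75 ± 0.37. Of its exonic bases, 13.6% lie opposite HSPB2, so reads of the paired genes cannot be told apart there without strand.

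**Figure D4:**
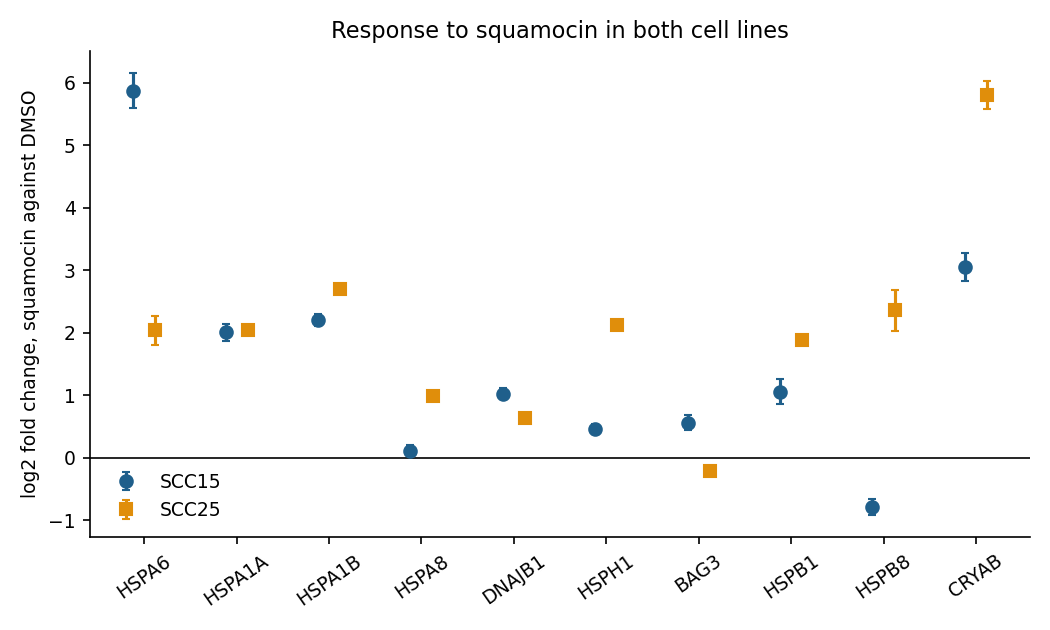
Log2 fold change of each gene between squamocin and DMSO in SCC15 (circles) and SCC25 (squares), with bars of 1 SE (n = 3 libraries per group). HSPA6 stands at 5.87 in SCC15 and 2.04 in SCC25, CRYAB at 3.05 and 5.80, and BAG3 and HSPB8 lie on opposite sides of 0 in the lines.

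Across the 10 genes, 3 (HSPA6, DNAJB1 and BAG3) had the larger log2 fold change in SCC15 and 7 had the larger one in SCC25. Together the genes held 0.203% to 0.207% of a library's normalized counts with DMSO and 0.222% to 0.244% with squamocin in SCC15. In SCC25 they held 0.142% to 0.147% with DMSO and 0.281% to 0.333% with squamocin. These shares do not depend on the size factors, and in both lines every squamocin library held the larger one.

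Levels of different genes were compared as mean normalized counts per kb of exon (union of the GENCODE v44 exons). This measure understates genes with many annotated isoforms, such as DNAJB1, HSPH1 and HSPA8. The places and overlaps of HSPA8, DNAJB1, HSPH1 and HSPB8 below depend on their joined exon lengths of 4.85, 8.19, 8.39 and 3.58 kb. These exceed the lengths of their longest transcripts (2207, 4174, 5145 and 1762 windows of 100 bases). With DMSO, HSPA8 was first in SCC15 at 4081 ± 86.8 per kb (SD, n = 3), followed by HSPB1 at 1995 ± 75.2 and HSPA1A at 685 ± 16.7. BAG3 (379 ± 25.5) and HSPA1B (359 ± 6.43) overlapped between libraries, as did DNAJB1 (298 ± 8.63) and HSPH1 (289 ± 7.21). HSPB8 (104 ± 8.78) came next, and HSPA6 (9.73 ± 3.99) and CRYAB (6.89 ± 1.12) overlapped at the bottom of the order.

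With squamocin, HSPA8 (4403 ± 231 per kb) and HSPB1 (4283 ± 1399) overlapped at the top in SCC15, and HSPA1A (2793 ± 514) and HSPA1B (1663 ± 175) came next. HSPA6, at 566 ± 74.5 per kb, overlapped both DNAJB1 (606 ± 42.9) above it and BAG3 (563 ± 71.8) below it. HSPH1 (399 ± 23.1) stood alone, and HSPB8 (60.2 ± 6.55) and CRYAB (59.9 ± 16.5) overlapped in the last places.

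SCC25 cells with DMSO also had HSPA8 (2232 ± 10.5 per kb) and HSPB1 (2050.0 ± 61.7) in the first places, followed by BAG3 (884 ± 32.7), DNAJB1 (796 ± 10.9), HSPA1A (571 ± 36.8), HSPA1B (510.1 ± 4.81) and HSPH1 (74.8 ± 0.48). HSPA6 followed at 9.94 ± 2.08, and CRYAB (2.72 ± 1.00) and HSPB8 (2.43 ± 1.13) overlapped at the end. With squamocin, HSPB1 at 7595 ± 426 per kb passed HSPA8 at 4441 ± 594 in this measure. That change of order rests on the lengths used, since the mean count of HSPA8 was 21536 and that of HSPB1 12326. HSPA1B (3311 ± 59.0) stood above HSPA1A (2347 ± 161). The order then ran DNAJB1 (1236 ± 137), BAG3 (768 ± 33.9), HSPH1 (328 ± 20.9), CRYAB (158 ± 20.2), HSPA6 (42.2 ± 8.93) and HSPB8 (13.0 ± 1.60), with no overlap between neighbours.

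The other genes of the pathway were taken from 5 lists with 40 genes in all, and their normalized counts, plus 1 and on the log2 scale, were tested with limma, adjusted by Benjamini-Hochberg over all genes fitted. In SCC15, 35 were fitted, of which 23 rose, 5 fell and 7 did not pass an adjusted p of 0.05, while 30.9% of all genes fitted rose and 30.0% fell. In SCC25, 34 were fitted, of which 24 rose, 9 fell and 1 did not pass, against 38.3% and 38.5% of all genes. Their median log2 fold change was 0.55 in SCC15 and 0.52 in SCC25, beside 0.01 and -0.01 over all genes. With equal library totals it was 0.06 and 0.31, beside -0.48 and -0.22 over all genes. Shares of all genes that passed under equal totals are not given here. No count under equal totals, here or in the lists below, therefore has a background beside it. The SCC15 split depended on the scaling, with 11 higher and 9 lower under equal library totals. It also depended on single libraries, since the count that fell was 2 without the first or second DMSO library or the first squamocin library, 3 without the third DMSO or the second squamocin library, and 7 without the third squamocin library. Among the genes tested in both lines, 18 rose in both, 3 fell in both and 7 passed in opposite directions. The matching shares of all genes were not computed, so these joint counts are a description only.

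All 4 genes of the list of heat shock factors rose in both lines under the authors' scaling, where 30.9% of all genes fitted rose in SCC15 and 38.3% in SCC25. With equal totals 2 of them passed in SCC15 and 4 in SCC25. The SCC15 calls lost there were those of HSF2, given below, and of HSBP1, which went from 0.72 to 0.22 (adjusted p = 0.153). HSBP1 is a heat shock factor binding protein and not itself a factor, and it was named after its values were seen. HSF1, the main stress-responsive factor, had 1813, 1686 and 1752 normalized counts with DMSO and 3962, 4194 and 4468 with squamocin in SCC15, a log2 fold change of 1.26 ± 0.08 (limma adjusted p = 3.74e-05). In SCC25 it had 1668, 1669 and 1806 with DMSO and 2581, 2376 and 2702 with squamocin, and the log2 fold change was 0.57 ± 0.06 (limma adjusted p = 9.98e-07). HSF2, a second factor that can form trimers with HSF1, rose by 0.54 ± 0.10 in SCC15 (limma adjusted p = 0.00224) and by 1.40 ± 0.06 in SCC25 (limma adjusted p = 5.81e-10), but with equal totals its SCC15 log2 fold change was 0.04 (adjusted p = 0.713).

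Of the other cytosolic HSP70s and exchange factors, 3 rose and 4 fell among 8 fitted in SCC15, and 4 rose and 3 fell among 7 in SCC25. Of all genes fitted, 30.9% rose and 30.0% fell in SCC15, and 38.3% and 38.5% in SCC25. HSPA7, the pseudogene that resembles HSPA6, had 0.853, 1.58 and 1.75 normalized counts with DMSO and 211, 137 and 137 with squamocin in SCC15. Its DMSO libraries held 1 or 2 reads each, and the ratio of 116 had an exact 95% interval of 49.3 to 359 for counting error only. In SCC25 the HSPA7 counts were 7.25, 0.900 and 6.20 with DMSO and 26.7, 17.7 and 17.8 with squamocin. HSPA7 reached the required mean only through its squamocin libraries in both lines, so its calls, which the counts include, give no independent evidence of a change.

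A further 3 HSP70-family genes fell in both lines, in contrast to the inducible ones. HSPA2, a testis-enriched HSP70, fell by 2.24 on the log2 scale in SCC15 (SE 0.23, limma adjusted p = 0.000219) and fell by 1.23 in SCC25 (SE 0.06, limma adjusted p = 1.79e-09). HSPA1L, which lies beside HSPA1A, fell by 1.63 in SCC15 (SE 0.54, limma adjusted p = 0.033), with overlapping groups, and fell by 1.11 in SCC25 (SE 0.23, limma adjusted p = 0.000881). In SCC15 it reached the required mean only through its DMSO libraries (mean 23.3, against 7.76 with squamocin). That SCC15 call, which the counts include, therefore gives no independent evidence of a change. HSPA4, an HSP110-type relative of HSPH1, fell by 0.37 in SCC15 (SE 0.12, limma adjusted p = 0.0271) and fell by 0.18 in SCC25 (SE 0.04, limma adjusted p = 0.00197). The SCC15 call of HSPA1L was lost without the first or second DMSO library or the first squamocin library (adjusted p = 0.0857 to 0.112), and that of HSPA4 without any library of SCC15 but the third squamocin one (adjusted p = 0.0708 to 0.0993).

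HSPA4L, another HSP110-type gene, went opposite ways, from 519, 595 and 566 counts with DMSO to 361, 313 and 339.7 with squamocin in SCC15 (limma adjusted p = 0.000788) and from 613, 577 and 598 to 1361, 1319.6 and 1344 in SCC25 (limma adjusted p = 7.85e-10). BAG1, an exchange factor of the BAG family, rose by 1.20 ± 0.13 in SCC15 (limma adjusted p = 0.000278) and by 0.18 ± 0.06 in SCC25 (limma adjusted p = 0.022). The SCC25 call of BAG1 was lost without the second or the third DMSO library or the first squamocin library (adjusted p = 0.0816, 0.0878 and 0.0605), and with equal totals its log2 fold change there was -0.03.

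Among the 7 other cytosolic J proteins, 4 rose and 1 fell in SCC15 and 5 rose and 1 fell in SCC25. The shares of all genes that rose and fell were 30.9% and 30.0% in SCC15, and 38.3% and 38.5% in SCC25. With equal totals the SCC15 split turned, to 1 higher and 3 lower, and that of SCC25 was 5 higher and 2 lower. Of the 6 genes on the list of other small heat shock proteins, only HSPB11 was expressed highly enough to be fitted. Its log2 fold changes were 0.35 in SCC15 (limma adjusted p = 0.0835) and 0.32 in SCC25 (limma adjusted p = 0.000546). It bears the HSPB name, but these data do not show that it acts as a small heat shock protein. With equal totals the SCC15 direction of HSPB11 turned, to -0.15, and its SCC25 call was lost at 0.11 (adjusted p = 0.124). HSPB11 was named after its values were seen.

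The list of HSP90s and other genes commonly given as HSF1 targets had 12 genes that rose and 0 that fell among 15 in SCC15 with limma, and 10 that rose and 5 that fell in SCC25. Beside these, 30.9% of all genes rose and 30.0% fell in SCC15, and 38.3% and 38.5% in SCC25. In SCC15 the counts with equal totals were 6 higher and 2 lower. In SCC25 they were 8 and 6. HSP90AA1, the inducible cytosolic HSP90, had 20911, 22346 and 21066 normalized counts with DMSO and 24384, 24372 and 29095 with squamocin in SCC15, a log2 fold change of 0.27 ± 0.12 (limma adjusted p = 0.0823). Without the third squamocin library it was 0.19 and passed (adjusted p = 0.000294), and with equal totals it was -0.23 (adjusted p = 0.035). In SCC25 HSP90AA1 rose from 12741, 12826 and 12849 to 20401, 20644 and 20672, a log2 fold change of 0.68 ± 0.03 (limma adjusted p = 1.51e-09).

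HSP90AB1, the constitutive cytosolic HSP90, rose in SCC15 by a log2 value of 0.84 ± 0.11 (limma adjusted p = 0.000637) and by 0.09 ± 0.04 in SCC25 (limma adjusted p = 0.0494). The SCC25 call was lost without any one DMSO library or the first squamocin library (adjusted p = 0.0878 to 0.147), and turned to -0.12 with equal totals (adjusted p = 0.02). CHORDC1, an HSP90 co-chaperone, rose by 0.70 ± 0.13 in SCC15 (limma adjusted p = 0.00313) and by 2.01 ± 0.05 in SCC25 (limma adjusted p = 2.38e-12). With equal totals its SCC15 call was lost at a log2 fold change of 0.20 (adjusted p = 0.354). STIP1, which bridges HSP70 and HSP90, did not pass in SCC15 (log2 fold change -0.12 ± 0.08, limma adjusted p = 0.199) and fell by 0.84 in SCC25 (SE 0.04, limma adjusted p = 5.56e-10). STIP1 passed in SCC15 at -0.14 without the third squamocin library (adjusted p = 0.00287), at -0.19 with TMM factors (adjusted p = 0.0498) and at -0.62 with equal totals (adjusted p = 0.000612).

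HSPE1, the mitochondrial HSP10, rose by 0.90 ± 0.15 in SCC15 (limma adjusted p = 0.00178) and by 1.56 ± 0.05 in SCC25 (limma adjusted p = 3.17e-11). ZFAND2A, a stress-induced zinc finger protein, rose by 1.31 ± 0.17 in SCC15 (limma adjusted p = 0.000517) and by 0.93 ± 0.07 in SCC25 (limma adjusted p = 1.45e-07). Windows with 3 heat shock element units stood before 7 of the 33 pathway genes with a RefSeq promoter entry, namely DNAJA1, DNAJB6, HSP90AA1, HSP90AB1, HSPD1, CHORDC1 and SERPINH1.

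**Figure D5:**
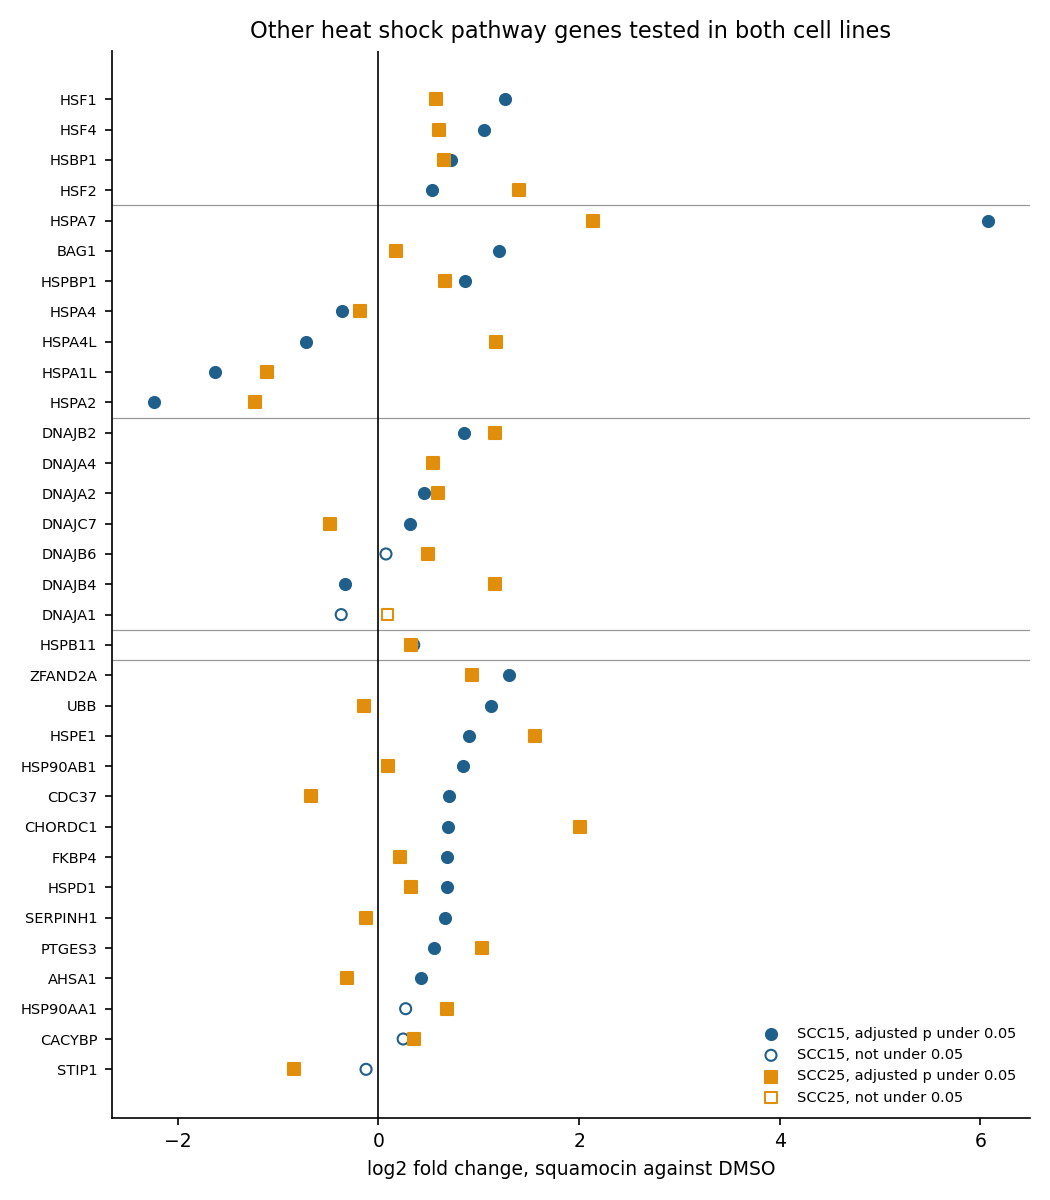
Log2 fold change between squamocin and DMSO of 33 of the pathway genes fitted in both lines, by list from the heat shock factors at the top to the HSP90s and other HSF1 targets at the bottom, with filled symbols for a limma adjusted p under 0.05 (SCC15 circles, SCC25 squares). HSPA7 reaches 6.08 in SCC15 and CHORDC1 2.01 in SCC25, while HSPA2, HSPA1L and HSPA4 lie below 0 in both lines.

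The response itself differed between the lines for many of all genes fitted, and not only for genes of the pathway. In a contrast of the within-line fold changes over the 14454 genes fitted in both lines, 13 of the 34 pathway genes had a larger response in SCC15 and 10 a smaller one, against 26.1% and 26.0% of all genes. With equal library totals these counts were 11 and 14, for which the shares of all genes are not given here.

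HSP70s of other compartments gave the comparison with the cytosolic family. HSPA5, the HSP70 of the endoplasmic reticulum (BiP), had 16615, 16954 and 16509 normalized counts with DMSO and 209093, 193195 and 252091 with squamocin in SCC15, a log2 fold change of 3.70 ± 0.15 (limma adjusted p = 7.93e-06). In SCC25 it had 21041, 21041 and 20831 with DMSO and 152132, 147566 and 164951 with squamocin, a log2 fold change of 2.88 ± 0.04 (limma adjusted p = 5.55e-14). HSPA9, the mitochondrial HSP70, rose by 0.65 ± 0.12 in SCC15 (limma adjusted p = 0.00257) and by 0.28 ± 0.04 in SCC25 (limma adjusted p = 8.74e-05), and with equal totals neither call held (0.15, adjusted p = 0.123, and 0.07, adjusted p = 0.17).

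Profiles over the 12 libraries were compared as Pearson r of log2 normalized counts after the mean of each cell line was subtracted, among 12035 other protein-coding genes fitted in both lines. These r values describe libraries that share the treatment contrast, so they mostly rank how alike the size of the response was in each line. The genes most like HSPA1A were PTS (r = 0.997), HNRNPDL (0.997), RSRP1 (0.997), DPH7 (0.997) and RBCK1 (0.997). Those most like HSPA6 were FBXO27 (0.994), PABPC4 (0.991), RHOV (0.990), GSDME (0.990) and LARS (0.989). None of these was a chaperone of the lists. Among the 10 genes themselves, HSPA1A and HSPA1B were the most alike (0.991), then HSPA8 and HSPH1 (0.978), and BAG3 and HSPB8 were the least alike (-0.555).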

How the data were processed

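RNA-seq of SCC15 and SCC25 cells (24 h, squamocin or DMSO, 3 libraries per group) was re-analysed. The authors aligned reads to GRCh38 with HISAT2 2.0.5 and counted them per gene with featureCounts 1.5.0-p3. The deposited signal was made by the authors from read counts, scaled separately in each line by a factor for each library. The SCC25 columns are named FPKM but hold the same unit. Multiplied by the factor, 100% of values were whole reads within 0.05. The deposited fold changes, p-values and group means of the authors' comparison were not used.

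Log2 of the signal plus a pseudocount of 1 was fitted with limma 3.58.1 (R 4.3.3, two-sided, Benjamini-Hochberg) for genes with a mean of at least 10, and the fits were tested on simulated data. All genes were fitted (15902 in SCC15, 16539 in SCC25). Alternatives were the recovered reads in edgeR 4.0.16 and in DESeq2 1.42.0, TMM factors, equal totals, pseudocounts of 0.1 and 10, all genes above 0, a replicate block and each library left out. Intervals are exact (95%) and cover counting error only.

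The 10 genes and the lists were chosen with earlier results of these data known, and no test is given for the 10. Genes were named by rule: the 10 genes, HSF1, HSF2, HSP90AA1, HSP90AB1, 6 other HSP70 genes, up to 5 pathway genes with the largest rise and 3 with the largest fall past an adjusted p of 0.05 in each line, and the 5 profiles most like HSPA1A and HSPA6. A result for 1 pathway gene is not reported here, although the counts include it. Promoter sequences are from RefSeq (GRCh38.p14), and exon lengths from GENCODE v44.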

Additional observations from a re-analysis of the deposited data

Results flagged for a closer look

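BAG3 and HSPB8 moved in opposite directions in the cell lines, with every library on its own side under the authors' scaling. BAG3 was higher with squamocin in SCC15 and lower in SCC25, a log2 difference of 0.77 ± 0.13 (SE), and HSPB8 was lower in SCC15 and higher in SCC25, a difference of -3.15 ± 0.34. In SCC25, HSPB8 reached the required mean only through its squamocin libraries (DMSO mean 8.71), so its rise there gives no independent evidence of a change. With equal library totals the BAG3 groups of SCC15 overlapped (log2 fold change 0.07) and its difference was 0.48. These differences were not tested, because the genes were chosen with their values known.

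The other 16 named genes come from lists chosen with earlier results known, and some were named for a large change within 1 line. Their adjusted p-values are therefore not independent of that choice. Over all genes, 26.1% had a larger and 26.0% a smaller response in SCC15. Among these 16, 13 had a response that differed between the lines (SCC15 minus SCC25 on the log2 scale, limma contrast). It was larger in SCC15 for HSPA7 (3.93, adjusted p = 0.000444), BAG1 (1.03, adjusted p = 8.47e-05), HSPA5 (0.82, adjusted p = 0.000855), HSP90AB1 (0.75, adjusted p = 0.000242), STIP1 (0.72, adjusted p = 1.45e-05), HSF1 (0.69, adjusted p = 0.000115) and HSPA9 (0.37, adjusted p = 0.0304). HSPA7 reached the required mean only through its squamocin libraries. With equal totals the differences of HSPA5, HSP90AB1, STIP1 and HSF1 still passed but were 0.53, 0.46, 0.43 and 0.40. The HSPA9 difference was 0.08 with equal totals (adjusted p = 0.502) and did not pass without any one of 7 of the libraries left out singly (adjusted p = 0.0534 to 0.0707).

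The response was smaller in SCC15 for HSPA4L (-1.90, adjusted p = 7.55e-08), CHORDC1 (-1.31, adjusted p = 1.18e-05), HSPA2 (-1.01, adjusted p = 0.00073), HSF2 (-0.86, adjusted p = 3.35e-05), HSPE1 (-0.65, adjusted p = 0.00494) and HSP90AA1 (-0.41, adjusted p = 0.0112, and -0.70 with equal totals).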

How the results depend on the processing

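Equal library totals were the choice that changed most. Under it, 2 of the 10 genes were entirely lower in SCC15 instead of 1, the medians were 0.54 (SCC15) and 1.83 (SCC25), and the SCC15 pathway genes that rose and fell numbered 11 and 9. It also reversed HSPA8 (-0.39) and HSPH1 (-0.036) in SCC15 and BAG1 (-0.031) and HSP90AB1 (-0.12) in SCC25. In SCC15 it also turned, among others, the sign of HSP90AA1 (0.27 to -0.23, adjusted p = 0.035), AHSA1 (-0.07), DNAJC7 (-0.18) and HSPB11 (-0.15). Its construction, which removes the difference in library totals, moves every gene of a library together. The shares of all genes counted under equal totals are not given here. A pseudocount of 10 moved the SCC25 median to 1.79 and lowered the log2 fold changes of genes with few DMSO reads, HSPA6 to 5.38 in SCC15 and 1.70 in SCC25, and CRYAB to 5.02 and HSPB8 to 1.61 in SCC25. With each library left out, the 9 higher and 1 lower of the 10 genes stayed in both lines, the medians ranged from 0.90 to 1.14 in SCC15 and from 1.93 to 2.11 in SCC25, and the SCC15 pathway genes that fell ranged from 2 to 7. With TMM factors, edgeR and DESeq2, counts stayed within 1.5 times those reported.

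Replicate numbers did not pair the samples: deviations of same-numbered libraries correlated between -0.05 and 0.01, and no library correlated best with its own number. With the number as a replicate block, 22 pathway genes rose and 4 fell in SCC15, 23 rose and 9 fell in SCC25, and 13 and 10 responses were larger and smaller in SCC15. The calls of HSP90AB1 in SCC25 (adjusted p = 0.0792) and of the HSPA9 difference (adjusted p = 0.0505) were lost.

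Depth limits HSPB8 in SCC25 and HSPA7, whose DMSO libraries held few reads, and HSPA1L in SCC15, whose squamocin libraries held 20 reads together.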

Other observations

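Besides HSPA4L, 6 pathway genes passed the limma threshold in opposite directions in the cell lines, and they are named here after their values were seen. The share of all genes that did so was not computed. DNAJB4, a J protein related to DNAJB1, fell in SCC15 (log2 fold change -0.34 ± 0.13, adjusted p = 0.0486) and rose in SCC25 (1.17 ± 0.06, adjusted p = 2.83e-09). CDC37, which delivers kinases to HSP90, rose in SCC15 (0.70 ± 0.12, adjusted p = 0.0017) and fell in SCC25 (-0.67 ± 0.05, adjusted p = 4.7e-08). AHSA1, the activator of the HSP90 ATPase, rose in SCC15 (0.43 ± 0.16, adjusted p = 0.0481) and fell in SCC25 (-0.31 ± 0.05, adjusted p = 0.000153). DNAJC7 (0.32 and -0.48), SERPINH1 (0.66 and -0.13) and UBB (1.12 and -0.15) had the same signs as CDC37. In SCC25 the groups of SERPINH1 (limma adjusted p = 0.046) and UBB (limma adjusted p = 0.0333) overlapped. With equal totals the SCC15 log2 fold changes of AHSA1 (-0.07, adjusted p = 0.59) and DNAJC7 (-0.18, adjusted p = 0.083) turned and no longer passed, and that of SERPINH1 (0.16, adjusted p = 0.084) no longer passed.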
